A study of Mus musculus and Homo sapiens with 18 samples.

Results

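Interferon-stimulated genes are the antiviral and immune genes that cells switch on when interferons bind their receptors. The 41 mouse genes described here were listed by symbol, but with earlier results of these data known, so the choice was not blind to them. The genes were sought among the 55858 gene identifiers of the mouse libraries, and all 41 were found. They were read in a study of bladder carcinoma with 18 libraries, of which 12, in 4 groups of 3, are used here. Relapsed bladder tumours from a GEMM (a mouse engineered to develop cancer) treated with chemotherapy, named in the protocol as cisplatin plus gemcitabine, were set against control tumours of this model; their titles say chemotherapy-treated and their library names say relapse. CUUC-G, by its library name, is also labelled GEMM and bladder, and carried either a guide against Igfbp5 (sgIgfbp5) or the control guide sgScr. Its libraries are called cells here and the other libraries tumours, though whether cultured cells or tumours were sequenced is not given for either. Igfbp5 is a secreted binding protein for insulin-like growth factors. Its targeting is called a knockdown in the labels and a knockout in the design text. Neither the alleles of the model, nor ages, nor the number of clones, nor whether the 3 libraries of a group came from separate tumours or cultures is given, so the p-values measure only the spread between these libraries, which may be technical.

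As background, type I interferons bind Ifnar1 and Ifnar2, whose kinases phosphorylate STAT proteins, Stat2 among them. Stat2 and Irf9 are subunits of the complex ISGF3, which binds interferon-stimulated response elements (ISREs), while interferon gamma acts at gamma-activated sites (GAS). Double-stranded RNA or DNA in the cytosol, seen by sensors such as Ifih1 or Zbp1, can start the same programme, and in tumours it is known to follow DNA damage and to run at a chronic low level in some cells.

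Promoters of the list are shown first because the ISRE is the sequence by which ISGF3 recognises these genes. RefSeq promoters of GRCm38.p6, from 250 bases before to 50 bases after each start site, were on hand for 31 of the 41 genes. The ISRE core GAAANNGAAA, or TTTCNNTTTC on the other strand, was in a promoter of 18 of these 31 genes (58.1%), against 3.99% of all 27025 genes in the table and 3.44% of its 32851 promoters. The GAS core TTCNNNGAA, which reads alike on both strands, was in 9 of 31 (29.0%), against 9.55% of all genes and 8.30% of all promoters. A match of letters describes the window and does not show a bound site. The 200 bases before the start site are given below in lower case, 5′ to 3′ on the gene's strand, with matches in capitals. Ifit1, Isg15, Ifit3 and Ifit3b show the ISRE core, Irf1 the GAS core, and Ifi44, which went against most of the list in both comparisons, neither core. The search took exact letters only, and near matches were not counted for any gene. In the Ifi44 window, tttcagtttt differs from TTTCNNTTTC by a single letter, so the lack of a match does not show that an ISRE is absent.
Ifit1 (chr19:34640689-34640888, plus strand): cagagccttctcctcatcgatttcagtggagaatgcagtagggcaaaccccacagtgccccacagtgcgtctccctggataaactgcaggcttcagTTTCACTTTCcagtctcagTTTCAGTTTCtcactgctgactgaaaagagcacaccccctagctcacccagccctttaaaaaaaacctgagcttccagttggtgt
Isg15 (chr4:156200819-156201018, minus strand): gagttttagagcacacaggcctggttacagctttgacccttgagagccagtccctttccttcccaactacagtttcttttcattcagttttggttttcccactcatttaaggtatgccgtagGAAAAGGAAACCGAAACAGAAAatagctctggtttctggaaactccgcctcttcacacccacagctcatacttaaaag
Ifit3 (chr19:34583329-34583528, plus strand): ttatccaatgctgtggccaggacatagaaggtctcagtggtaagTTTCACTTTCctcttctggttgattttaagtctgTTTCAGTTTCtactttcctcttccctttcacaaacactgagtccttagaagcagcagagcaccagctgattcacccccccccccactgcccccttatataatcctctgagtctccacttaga
Ifit3b (chr19:34607757-34607956, plus strand): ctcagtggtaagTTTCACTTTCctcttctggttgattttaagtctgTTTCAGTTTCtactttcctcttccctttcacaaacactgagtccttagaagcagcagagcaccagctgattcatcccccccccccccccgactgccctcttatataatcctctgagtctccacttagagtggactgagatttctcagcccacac
Irf1 (chr11:53769814-53770013, plus strand): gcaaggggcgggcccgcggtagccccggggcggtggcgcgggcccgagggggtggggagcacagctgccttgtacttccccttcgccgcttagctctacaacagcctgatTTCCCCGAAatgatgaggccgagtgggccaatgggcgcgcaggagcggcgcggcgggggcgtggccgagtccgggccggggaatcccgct
Ifi44 (chr3:151749911-151750110, minus strand): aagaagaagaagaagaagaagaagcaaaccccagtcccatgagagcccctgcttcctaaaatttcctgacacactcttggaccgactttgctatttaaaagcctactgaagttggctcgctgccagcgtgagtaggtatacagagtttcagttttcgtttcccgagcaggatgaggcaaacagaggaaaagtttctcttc

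The pair of ISRE cores in Ifit1 began 104 and 85 bases before its start site. In Isg15, 3 overlapping matches, at 78, 72 and 66 bases, ran together into a single stretch. Ifit3 and Ifit3b, neighbouring copies of one another, hold the same pair of cores, 156 and 122 bases before the start of Ifit3 and 188 and 154 bases before that of Ifit3b. The GAS core of Irf1 lies 90 bases before its first start site.

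The libraries held between 18.965 and 21.757 estimated counts in units of 1e6. Igfbp5 itself was higher in relapsed tumours, by 2.44 ± 0.44 on the log2 scale (SE, edgeR adjusted p = 1.97e-05). It had 1.7954, 3.1875 and 2.4022 CPM (counts scaled to 1e6 per library) there, against 0.1824, 0.8938 and 0.3017 CPM in control tumours. In sgIgfbp5 cells it was lower (log2 fold change -1.999 ± 0.42, edgeR adjusted p = 0.00125). It had 0.6058, 0.3934 and 0.4698 CPM there, against 1.0425, 2.5589 and 2.3129 CPM in sgScr cells. These levels are low, which limits the precision of both changes. The mean profiles of relapsed tumours and of sgScr CUUC-G cells were close to each other (Pearson r of mean log2 CPM = 0.9933 across 14076 genes, which are not independent replicates; 82 genes were 2-fold or more apart), against 3074 such genes between relapsed and control tumours and 4033 between sgIgfbp5 and sgScr cells. The X-inactivation transcript Xist had 50.2 to 60.6 TPM in relapsed tumours and 0.0136 TPM or less in control tumours. Within CUUC-G, Xist was called higher with sgIgfbp5, at 114 to 199.6 TPM, against 39.8 to 59.3 TPM in sgScr cells. The Y-linked Ddx3y and Eif2s3y were at 0 counts in relapsed, sgIgfbp5 and sgScr libraries and at 27.8 TPM or more in every control library. The summed level of 12 immune markers, among them Ptprc and Cd3e, did not pass 1.64 TPM in any library, and Ptprc was at 0 counts in relapsed tumours and in both CUUC-G groups. Csf1r, the only 1 of the 12 tested, was called higher at relapse and lower with sgIgfbp5. Its libraries held 23.0 to 46.8 counts in relapsed and 2.68 to 13.5 in control tumours. They held 0 to 3 counts in sgIgfbp5 and 25 to 39 in sgScr cells.

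Cell type markers moved with both comparisons, in several lists with members going opposite ways. Of the 15 urothelial markers, Krt5 and Upk3a were at 0 counts in all 4 groups. The 15 summed to between 645 and 664 TPM in relapsed tumours, against 23.4 to 26.8 TPM in control tumours, a sum carried by Krt8, Krt18, Krt19 and Upk1b. Of the 9 tested there, 5 were higher, 3 did not pass, and the urothelial factor Gata3 was lower, with 0.621 to 1.03 TPM in relapsed tumours, against 6.72 to 9.898 TPM in control tumours. In CUUC-G the sum was 136 to 154 TPM in sgIgfbp5 cells, against 668 to 695 TPM in sgScr cells, with the same 4 genes and Cdh1 lower, while Gata3, Foxa1, Pparg and Upk1a were higher. Of the 5 fibroblast markers, the collagens Col1a1 and Col1a2 were lower at relapse and Pdgfra, Dcn and Lum were higher; Pdgfra had 23.8 to 30.04 TPM in relapsed tumours, against 2.85 to 4.11 TPM in control tumours. With sgIgfbp5, Col1a1, Col1a2, Pdgfra and Dcn, the 4 tested, were all lower; Pdgfra had 0.6696 to 0.995 TPM in sgIgfbp5 cells, against 23.9 to 26.2 TPM in sgScr cells. Of the 4 endothelial markers, Kdr had 36.6 to 39.4 TPM in relapsed tumours, against 0.2996 to 0.437 TPM in control tumours, and 1.86 to 1.999 TPM in sgIgfbp5 cells, against 33.5 to 37.01 TPM in sgScr cells. Tek was lower at relapse, and Tek, Cdh5 and Pecam1 stayed under 1 TPM in every library. The sex-linked difference follows the relapsed and control groups in every library. Its part in the relapse results therefore cannot be told apart from that of relapse or treatment, and "rose" or "fell" below describes the groups only. The part of the sex-linked genes in CUUC-G, and of these cell type markers in both comparisons, was not tested. In bulk RNA fewer cells of a type and less RNA per cell cannot be told apart.

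By length-corrected level (TPM), the list ran in relapsed tumours from 0.184 TPM for Mx1 to 368 TPM for Ifitm2. Ifitm2, Ifitm3 and Ifi27 were the 3 most abundant, in every group, and Ifitm2 averaged 368 ± 8.23 TPM in relapsed tumours and 244 ± 6.07 TPM in control tumours (SD, n = 3). It averaged 292 ± 13.3 TPM in sgIgfbp5 cells and 403 ± 15.2 TPM in sgScr cells. In relapsed tumours 4 of the 41 genes averaged 100 TPM or more and 4 averaged less than 1 TPM; in control tumours these numbers were 3 and 8. In sgIgfbp5 cells 3 were at 100 TPM or more and 12 under 1 TPM, against 4 and 4 in sgScr cells. The median gene of the list had 7.81 TPM in relapsed and 4.21 TPM in control tumours, and 2.31 TPM in sgIgfbp5 and 7.67 TPM in sgScr cells. Tumours and CUUC-G come from separate tables, so levels are set side by side across them without a test.

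**Figure D1:**
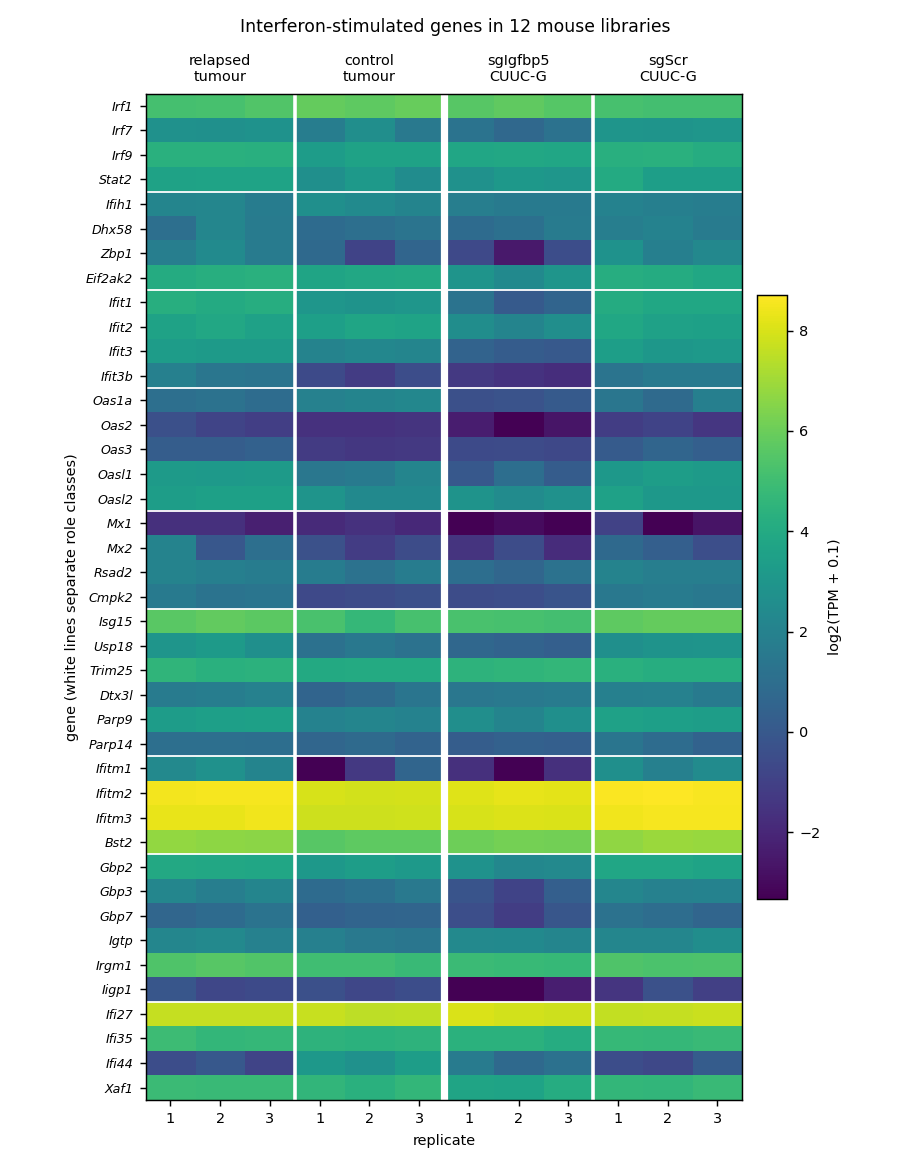
Level of each of the 41 genes, as log2(TPM + 0.1), in the 12 mouse libraries, with 3 replicates per group and the genes ordered by role. Ifitm2, Ifitm3 and Ifi27 are the brightest rows in every library, Mx1 is dark in every library, and the 4 IFIT rows are darkest in the sgIgfbp5 columns.

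Most of the list was higher in relapsed than in control tumours. Of the 40 genes that passed the low-count filter, 34 were higher, 4 were lower (Irf1, Ifih1, Oas1a and Ifi44) and 2 did not pass the threshold (Mx2 and Iigp1), by edgeR's quasi-likelihood test at an adjusted p under 0.05. Change was wide in this comparison: 73.5% of all 14373 genes tested were called, 36.6% higher and 36.9% lower. Against that background, 34 of the list's 40 tested genes is 85.0% higher, and 4 of 40 were lower. At 2-fold or more, 17 genes of the list were higher and 1 lower, against 13.2% and 12.0% of all genes. The 3 relapsed libraries lay wholly above the 3 control libraries for 35 genes and wholly below for 4, against 37.5% and 37.8% of all genes. The median log2 fold change was 0.78 over the 40 genes and 0.00 over all genes; with no filter, over all 41, it was 0.75.

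Among the transcription factors, the ISGF3 subunits Stat2 and Irf9 were higher at relapse. Stat2 had 31.1, 33.8 and 34.4 CPM in relapsed tumours, against 12.04, 15.4 and 13.4 CPM in control tumours (CPM, counts scaled to 1e6 per library with TMM-scaled library sizes), a log2 fold change of 1.29 ± 0.09 (± SE; adjusted p by edgeR = 5.85e-13). Irf9, the DNA-binding subunit, had 30.9, 31.5 and 29.7 CPM in relapsed tumours, against 13.7, 16.8 and 15.99 CPM in control tumours, a log2 fold change of 0.99 ± 0.09 (adjusted p = 6.05e-11). For both genes every relapsed library stood above every control library. Irf7, the factor that amplifies interferon production, rose by 1.202 ± 0.18 on the log2 scale. Irf1, a factor induced by interferon gamma and by inflammatory cytokines, fell, and it was the most abundant of the 4 by TPM in each group. It had 44.1, 43.2 and 47.7 CPM in relapsed tumours, against 57.7, 53.9 and 55.2 CPM in control tumours (log2 fold change -0.31 ± 0.06, adjusted p = 7.92e-05), a small difference with no overlap.

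Of the 4 sensors of foreign nucleic acid, 3 were higher. Zbp1, which binds Z-form nucleic acid and can start cell death, had 2.44, 2.99 and 1.86 CPM in relapsed tumours, against 0.684, 0.526 and 0.754 CPM in control tumours, a log2 fold change of 1.88 ± 0.35 (edgeR adjusted p = 3.18e-05). Eif2ak2, the RNA-activated kinase PKR that stops translation, had 45.03, 51.8 and 50.4 CPM in relapsed tumours, against 30.2, 38.2 and 38.5 CPM in control tumours (log2 fold change 0.46 ± 0.08, adjusted p = 3.68e-05). Both sets of libraries were apart without overlap, with Zbp1 at a far lower level than Eif2ak2. Dhx58 (LGP2), a partner of the RNA sensors, rose by 0.99 ± 0.26 on the log2 scale. Ifih1 (MDA5), which senses long double-stranded RNA, had 10.9, 11.6 and 9.31 CPM in relapsed tumours, against 14.1, 13.8 and 11.9 CPM in control tumours (log2 fold change -0.33 ± 0.12, adjusted p = 0.015). It passed as lower by a narrow margin: the lowest control library stood just above the highest relapsed one.

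All 4 IFIT genes, whose proteins bind foreign RNA caps and block translation, were higher. They lie in 1 cluster on chromosome 19, from Ifit2 (GRCm38, 34550694 to 34576419) to Ifit1 (34640871 to 34650009). Ifit1 had 31.2, 27.1 and 30.3 CPM in relapsed tumours, against 12.4, 11.2 and 11.97 CPM in control tumours, a log2 fold change of 1.31 ± 0.09 (edgeR adjusted p = 3.27e-13). Ifit3 had 10.4, 9.81 and 9.85 CPM in relapsed tumours, against 4.01, 4.52 and 4.17 CPM in control tumours (log2 fold change 1.24 ± 0.15, edgeR adjusted p = 1.76e-08). The relapsed libraries were all above the control ones for both. Ifit3b rose by 2.62 ± 0.34 and Ifit2 by 0.22 ± 0.08, so genes of a single cluster differed in size of change. Ifit3 and Ifit3b share 61.8% and 55.2% of their 31-base stretches with other genes, chiefly with each other, so the split of reads between the pair is uncertain.

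The OAS family is known for making the second messenger that activates RNase L, an activity that mouse Oasl1 lacks. Oasl1 had 12.8, 11.01 and 13.1 CPM in relapsed tumours, against 3.24, 3.73 and 5.18 CPM in control tumours, a log2 fold change of 1.604 ± 0.16 (edgeR adjusted p = 7.00e-10). Oasl2 had 15.01, 14.7 and 16.8 CPM in relapsed tumours, against 6.98, 7.68 and 7.64 CPM in control tumours (log2 fold change 1.06 ± 0.12, adjusted p = 4.63e-09). Groups did not overlap for either, and Oas3 and Oas2, both under 4 CPM, rose by 1.82 ± 0.30 and 1.23 ± 0.46. Oas1a went the other way, with 2.34, 2.59 and 2.16 CPM in relapsed tumours, against 4.06, 4.42 and 4.98 CPM in control tumours (log2 fold change -0.92 ± 0.22, adjusted p = 0.000434). Its value is uncertain, since 68.8% of its 31-base stretches occur in other genes, chiefly Oas1g, which was also called lower (log2 fold change -1.79).

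Mx1 and Mx2 encode dynamin-like GTPases that trap viral particles, and both were near the floor. Mx1 had 14 counts over the relapsed and 14 over the control libraries and was not tested. Mx2 had 1.496, 1.34 and 1.23 CPM in relapsed tumours, against 1.003, 0.473 and 0.855 CPM in control tumours, did not overlap between the groups and missed the threshold (log2 fold change 0.79 ± 0.40, edgeR adjusted p = 0.0767). All Mx2 counts were on transcripts that the deposited annotation does not class as protein coding, 70.6% of them in relapsed and 96.5% in control tumours on a transcript of the loss-of-function class. Cmpk2, a mitochondrial nucleotide kinase, had 6.18, 4.78 and 5.05 CPM in relapsed tumours, against 1.003, 1.104 and 1.26 CPM in control tumours (log2 fold change 2.25 ± 0.24, adjusted p = 3.75e-09), and the groups were far apart. Its neighbour Rsad2 (viperin), which makes a chain-terminating nucleotide, had 10.02, 8.96 and 8.04 CPM in relapsed tumours, against 7.34, 5.05 and 7.19 CPM in control tumours (log2 fold change 0.46 ± 0.15, adjusted p = 0.00923). The lowest relapsed Rsad2 library stood close above the highest control one, so neighbours on chromosome 12 differed in size of change.

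All 6 genes of the ISG15, ubiquitin and ADP-ribose class were higher. Usp18, which removes Isg15 from proteins and damps receptor signalling, had 7.13, 9.61 and 6.86 CPM in relapsed tumours, against 2.05, 2.63 and 2.06 CPM in control tumours, a log2 fold change of 1.81 ± 0.20 (edgeR adjusted p = 4.63e-09). Parp9, a partner of the ubiquitin ligase Dtx3l, had 20.1, 20.9 and 21.1 CPM in relapsed tumours, against 7.07, 6.89 and 7.24 CPM in control tumours (log2 fold change 1.55 ± 0.11, adjusted p = 2.31e-13). No library of one group reached the other in either gene. The ubiquitin-like modifier Isg15 itself rose less, by 0.76 ± 0.13, Dtx3l by 1.01 ± 0.16, the ADP-ribosyl transferase Parp14 by 0.53 ± 0.14 and the ubiquitin ligase Trim25 by 0.47 ± 0.05. Parp9 and Dtx3l overlap head to head over 682 bases on opposite strands of chromosome 16. The kit was stranded, but whether the quantification used strand is not given in the sources used here.

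All 4 membrane factors, which block viral entry or release, were higher, and Ifitm2 and Ifitm3 were among the 3 most abundant genes of the list by TPM. Ifitm2 had 93.01, 97.6 and 95.8 CPM in relapsed tumours, against 59.97, 56.1 and 57.9 CPM in control tumours, a log2 fold change of 0.72 ± 0.05 (edgeR adjusted p = 3.61e-13). Bst2 (tetherin), which holds budding virus at the cell surface, had 37.5, 35.1 and 34.7 CPM in relapsed tumours, against 15.5, 16.9 and 17.2 CPM in control tumours (log2 fold change 1.11 ± 0.08, adjusted p = 7.74e-13). Both were apart without overlap. Ifitm3 rose by 0.67 ± 0.05, close to Ifitm2, while 55.5% of the 31-base stretches of Ifitm2 and 20.5% of those of Ifitm3 recur in other genes. Ifitm1 rose by 3.49 ± 0.65 from few reads, 71 counts over the relapsed libraries against 6 over the control ones.

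Of the 6 interferon-inducible GTPases, which attack the vacuoles of intracellular microbes, 5 were higher. Irgm1, a regulator of that family and of autophagy, had 58.1, 65.9 and 59.9 CPM in relapsed tumours, against 41.1, 40.7 and 35.6 CPM in control tumours, a log2 fold change of 0.65 ± 0.07 (edgeR adjusted p = 1.95e-09). Gbp2 had 24.4, 23.8 and 22.2 CPM in relapsed tumours, against 12.8, 15.3 and 13.2 CPM in control tumours (log2 fold change 0.77 ± 0.09, adjusted p = 3.26e-08). The relapsed libraries exceeded the control ones throughout for both. Gbp3 rose by 1.14 ± 0.20, Igtp by 0.69 ± 0.20 and Gbp7 by 0.62 ± 0.19. Iigp1, with 65 counts over the relapsed and 54 over the control libraries, overlapped between the groups and did not pass (log2 fold change 0.28 ± 0.40, adjusted p = 0.542).

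Of the remaining 4 genes, 3 were higher by less than 1.5-fold and 1 was far lower. Ifi44, whose product is a cytosolic antiviral protein, had 1.15, 1.64 and 0.833 CPM in relapsed tumours, against 12.3, 11.4 and 13.1 CPM in control tumours, a log2 fold change of -3.34 ± 0.20 (edgeR adjusted p = 9.72e-15). Its control libraries all stood far above the relapsed ones, and the decrease was the largest of the list in this comparison. Ifi35, a partner of Nmi, had 23.5, 19.1 and 19.8 CPM in relapsed tumours, against 15.05, 13.8 and 14.98 CPM in control tumours (log2 fold change 0.51 ± 0.10, adjusted p = 4.01e-05). Xaf1, an antagonist of the apoptosis inhibitor Xiap, rose by 0.57 ± 0.13 and the mitochondrial protein gene Ifi27 by 0.12 ± 0.05. Ifi27 was among the 3 most abundant genes of the list and changed least among those called.

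**Figure D2:**
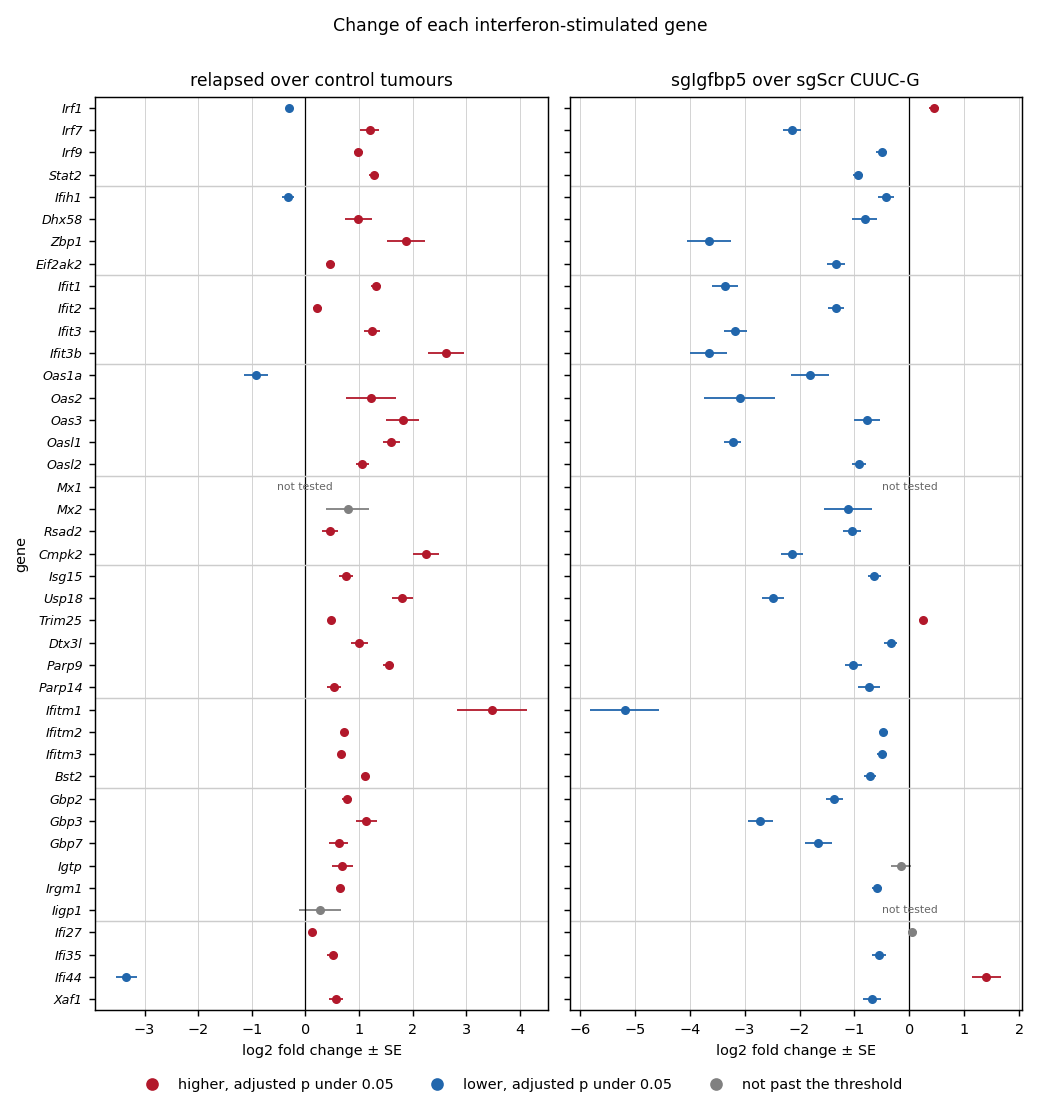
Log2 fold change ± SE of each gene from edgeR, in relapsed over control tumours (left) and in sgIgfbp5 over sgScr CUUC-G (right), 3 libraries per group, genes ordered by role and coloured by call. On the left 34 points are called higher and 4 lower; on the right 34 are called lower and 3 higher, and Ifi44 and Irf1 stand on the opposite side from most genes in both panels.

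Some of these calls ended under another setting. With DESeq2 the adjusted p was 0.0648 for Ifih1, 0.0585 for Ifit2, 0.0714 for Oas2 and 0.0999 for Ifi27. Ifih1 was at an edgeR adjusted p of 0.0576 without control replicate 1 and 0.0957 without relapsed replicate 3. The edgeR adjusted p of Rsad2 was 0.0790 without control replicate 2 and 0.0576 without relapsed replicate 1, that of Oas2 0.0924 and 0.199 without the same libraries, and that of Ifit2 0.0749 without control replicate 1 and 0.144 without relapsed replicate 2. Gbp7 was at 0.0806 without relapsed replicate 3. Ifi27 was at 0.200 and 0.0549 without control replicates 2 and 3 and at 0.0658, 0.0528 and 0.0849 without relapsed replicates 1, 2 and 3. Ifi27 also missed it by library size only (0.0761) and with no low-count filter (0.107). Ifih1, Dhx58, Ifit2, Rsad2, Parp14, Gbp7 and Ifi27 lost the call in all 3 limma fits on log2 TPM, and Irf7, Igtp and Oas2 in the one with no filter. Mx2 passed as higher with a filter of 1 CPM in 3 libraries (adjusted p = 0.0496) and with limma on log2(TPM + 0.1) (0.0407).

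Of 112 other pathway genes in 6 lists, 81 were tested at relapse: 39 were higher (48.1%), 29 lower (35.8%) and 13 did not pass, where 36.6% of all genes were higher and 36.9% lower. None of the 21 interferon genes passed the filter, and 19 of them in relapsed and 20 in control tumours were at 0 counts in all 3 libraries; Ifnz had 15 and 19 counts, and Ifnk 4 in relapsed tumours. The summed level of the 21 was at most 0.956 TPM in a relapsed and 0.647 TPM in a control library. Receptor subunits were higher for 5 of 6. Ifngr1, the ligand-binding chain of the interferon gamma receptor, fell to 28.6, 33.02 and 30.6 CPM in relapsed tumours, against 51.8, 51.999 and 48.97 CPM in control tumours (log2 fold change -0.73 ± 0.07, edgeR adjusted p = 2.78e-10). Its partner Ifngr2 rose by 0.56 ± 0.06 and Il10rb, shared with interleukin 10 and interferon lambda, by 0.58 ± 0.07, so the 2 chains of the gamma receptor went opposite ways without overlap.

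Kinases, STATs and IRFs outside the list split evenly, 4 higher and 4 lower of 8 tested. Stat3, the main interleukin 6 transducer, rose by 0.73 ± 0.04, and the receptor kinase Jak2 fell (log2 fold change -0.96 ± 0.04). Of 14 tested genes of nucleic acid sensing, 8 were higher and 5 lower. The adaptor Mavs had a log2 fold change of -0.85 ± 0.07 and the RNA editor Adar one of -0.66 ± 0.07, both lower. Tlr7, an endosomal RNA receptor, had 185 counts over the relapsed and 3 over the control libraries, a ratio of 61.7 (exact 95% interval 20.8 to 302, counting error only). Of 8 negative regulators 3 were higher and 4 lower: Socs3, an inhibitor of JAK signalling, rose by 1.58 ± 0.09 and the phosphatase Ptpn1 by 0.39 ± 0.06, while the phosphatase Ptpn2 fell (log2 fold change -0.56 ± 0.05).

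The 53 other interferon-induced genes, a second list of genes known for this response, gave 45 tested genes, 19 higher (42.2%), 15 lower (33.3%) and 11 not past the threshold, shares near those of all genes, with a median log2 fold change of 0.15. Slfn2, of the Schlafen family, had 29.97, 28.7 and 25.3 CPM in relapsed tumours, against 2.05, 1.47 and 1.71 CPM in control tumours (log2 fold change 3.99 ± 0.14, edgeR adjusted p = 4.30e-20). Plscr1, a phospholipid scramblase, rose by 1.92 ± 0.05 and Slfn9 by 1.62 ± 0.07. For these 3 genes every relapsed library was above every control one. They were named by smallest p and all rose, while the log2 fold changes of the 45 tested genes ran from -4.04 to 3.99.

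**Figure D3:**
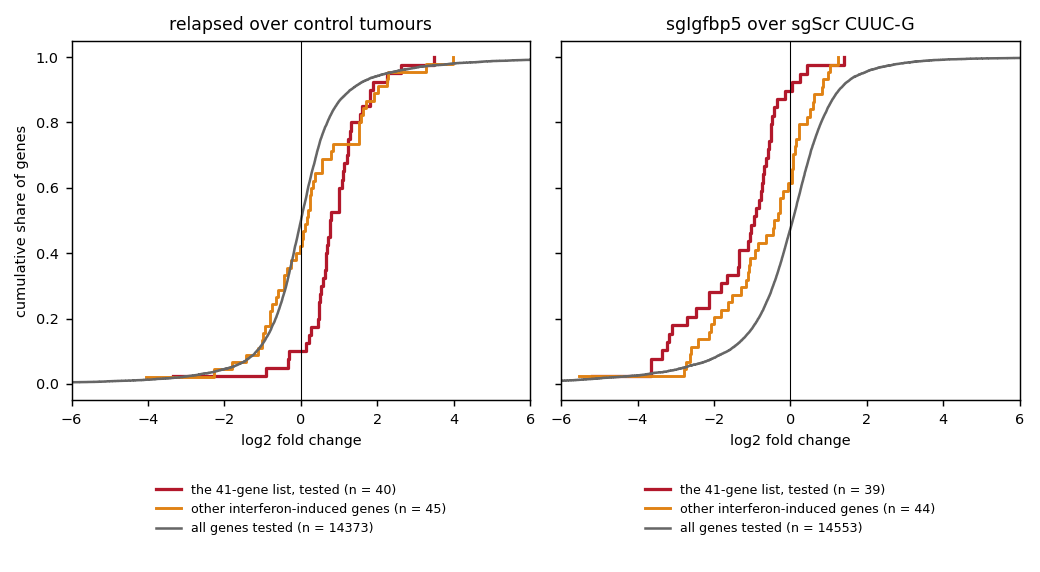
Cumulative share of genes by log2 fold change in relapsed over control tumours (left) and sgIgfbp5 over sgScr CUUC-G (right), for the tested genes of the list, the tested other interferon-induced genes and all genes tested; the axis is drawn from -6 to 6 and genes beyond are not shown. The list lies right of all genes on the left (medians 0.78 and 0.00) and left of all genes on the right (medians -0.94 and 0.06), and the other interferon-induced genes had medians of 0.15 and -0.37.

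The tumour table also resolves transcripts, which the CUUC-G table does not. Oasl2 reads were split: 42.9% in relapsed and 50.1% in control tumours fell on protein-coding transcripts, and 53.5% in relapsed tumours on 1 transcript annotated for nonsense-mediated decay. Retained-intron transcripts held 10.2% of Irf7 counts in relapsed and 5.87% in control tumours, 13.8% and 11.7% of Parp9 counts, and 11.5% and 6.33% of Xaf1 counts. Irf1, whose level fell, had 98.1% of its counts in relapsed and 99.3% in control tumours on protein-coding transcripts. These shares are over the summed libraries of a group and were not tested.

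In CUUC-G the list went the other way: most genes were lower in sgIgfbp5 than in sgScr cells. Of 39 genes tested, 34 were lower, 3 were higher (Irf1, Trim25 and Ifi44) and 2 did not pass (Igtp and Ifi27), by the same edgeR test. Here 70.8% of all 14553 genes tested were called, 36.5% higher and 34.3% lower; the list's 34 of 39 is 87.2% lower and its 3 of 39 is 7.69% higher. At 2-fold or more, 19 genes were lower and 1 higher, against 16.8% and 14.6% of all genes. Counting also genes that were not tested, the groups did not overlap for 35 lower and 3 higher genes, against 35.8% and 38.1% of all genes. The median log2 fold change was -0.94 over the 39 genes and 0.06 over all genes, and -1.02 over all 41 with no filter.

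The largest decrease among the 4 transcription factors was in Irf7. Irf7 had 2.17, 2.02 and 2.11 CPM in sgIgfbp5 cells, against 8.601, 9.08 and 10.005 CPM in sgScr cells, a log2 fold change of -2.13 ± 0.16 (± SE; adjusted p by edgeR = 4.20e-07). Stat2 had 17.01, 17.02 and 17.3 CPM in sgIgfbp5 cells, against 35.6, 32.8 and 30.2 CPM in sgScr cells (log2 fold change -0.94 ± 0.09, adjusted p = 3.92e-06). Every sgIgfbp5 library of both genes was below every sgScr one, and Irf9 fell too (log2 fold change -0.505 ± 0.10). Irf1 was higher, as the opposite of its change at relapse, with 65.99, 73.5 and 60.5 CPM in sgIgfbp5 cells, against 48.3, 48.5 and 50.02 CPM in sgScr cells (log2 fold change 0.44 ± 0.09, adjusted p = 0.000718). Its groups did not overlap, and the sgIgfbp5 libraries varied more among themselves.

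All 4 sensors were lower. Zbp1 had 0.303, 0.0984 and 0.329 CPM in sgIgfbp5 cells, against 3.91, 2.46 and 3.07 CPM in sgScr cells, a log2 fold change of -3.65 ± 0.40 (edgeR adjusted p = 9.15e-06). Eif2ak2 had 20.3, 12.98 and 19.5 CPM in sgIgfbp5 cells, against 49.3, 45.6 and 38.6 CPM in sgScr cells (log2 fold change -1.34 ± 0.16, adjusted p = 3.70e-05). Zbp1 was close to absent with sgIgfbp5, while Eif2ak2 stayed at 12.98 CPM or more. Dhx58 (log2 fold change -0.81 ± 0.23) and Ifih1 (-0.43 ± 0.14) fell by less, Ifih1 being lower in sgIgfbp5 cells as it was in relapsed tumours.

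All 4 IFIT genes were lower, each by 2-fold or more. Ifit1 had 3.84, 1.57 and 2.11 CPM in sgIgfbp5 cells, against 27.4, 24.4 and 24.96 CPM in sgScr cells, a log2 fold change of -3.35 ± 0.24 (edgeR adjusted p = 6.35e-07). Ifit3 had 1.41, 1.08 and 0.9396 CPM in sgIgfbp5 cells, against 11.4, 9.03 and 10.5 CPM in sgScr cells (log2 fold change -3.17 ± 0.20, adjusted p = 9.93e-08). In both genes the highest sgIgfbp5 library was far under the lowest sgScr one. The change was -3.66 ± 0.34 for Ifit3b and -1.33 ± 0.14 for Ifit2, which again differed least of the cluster.

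All 5 OAS genes were lower, 3 of them by 2-fold or more. Oasl1 had 1.31, 1.38 and 1.41 CPM in sgIgfbp5 cells, against 11.9, 13.5 and 12.9 CPM in sgScr cells, a log2 fold change of -3.22 ± 0.16 (edgeR adjusted p = 1.21e-08). Oasl2 had 7.57, 7.43 and 6.48 CPM in sgIgfbp5 cells, against 14.6, 12.9 and 12.9 CPM in sgScr cells (log2 fold change -0.91 ± 0.13, adjusted p = 5.39e-05). The sgIgfbp5 libraries of Oasl1 were within 0.1 CPM of each other, and neither gene overlapped between the groups. Oas2 changed by -3.09 ± 0.65 from 7 counts over the sgIgfbp5 and 59 over the sgScr libraries, Oas1a by -1.81 ± 0.34 and Oas3 by -0.77 ± 0.24; of these, Oas1a was lower in both comparisons.

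Of the Mx class, 3 of 3 tested genes were lower. Mx1 had 1 count over the sgIgfbp5 and 5 over the sgScr libraries and was not tested. Cmpk2 had 1.26, 1.38 and 1.55 CPM in sgIgfbp5 cells, against 5.68, 6.82 and 6.02 CPM in sgScr cells, a log2 fold change of -2.14 ± 0.20 (edgeR adjusted p = 2.26e-06). Rsad2 had 4.796, 3.64 and 5.07 CPM in sgIgfbp5 cells, against 9.96, 8.93 and 9.09 CPM in sgScr cells (log2 fold change -1.05 ± 0.16, adjusted p = 0.000127), and neither gene overlapped. Mx2, low throughout, had a log2 fold change of -1.12 ± 0.44 (adjusted p = 0.0409).

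Of the ISG15, ubiquitin and ADP-ribose class, 5 were lower and 1 higher. Usp18 had 1.57, 1.48 and 1.22 CPM in sgIgfbp5 cells, against 6.88, 8.43 and 8.55 CPM in sgScr cells, a log2 fold change of -2.48 ± 0.20 (edgeR adjusted p = 5.74e-07). Parp9 had 11.97, 8.11 and 12.1 CPM in sgIgfbp5 cells, against 23.6, 21.3 and 20.5 CPM in sgScr cells (log2 fold change -1.02 ± 0.15, adjusted p = 8.95e-05). The groups were apart for both. The log2 fold change was -0.74 ± 0.20 for Parp14, -0.64 ± 0.12 for Isg15 and -0.34 ± 0.12 for Dtx3l. Trim25 was higher, with 83.9, 91.3 and 90.8 CPM in sgIgfbp5 cells, against 76.4, 74.5 and 74.3 CPM in sgScr cells (log2 fold change 0.24 ± 0.07, adjusted p = 0.0107), a 1.18-fold difference without overlap.

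All 4 membrane factors were lower. Ifitm1 had 2 counts over the sgIgfbp5 libraries and 81 over the sgScr ones, 0.0505, 0 and 0.047 CPM in sgIgfbp5 cells, against 1.51, 1.05 and 1.67 CPM in sgScr cells; the ratio is 40.5 in favour of sgScr (exact 95% interval 10.9 to 340, counting error only; edgeR adjusted p = 1.86e-05). Bst2 had 26.9, 30.2 and 26.2 CPM in sgIgfbp5 cells, against 39.7, 47.5 and 50.2 CPM in sgScr cells (log2 fold change -0.72 ± 0.10, adjusted p = 8.24e-05). No sgIgfbp5 library reached a sgScr one. The abundant Ifitm2 and Ifitm3 changed by -0.47 ± 0.08 and -0.501 ± 0.10, so Ifitm1 was nearly lost while its abundant relatives on chromosome 7 kept most of their level.

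Of the GTPases, 4 of 5 tested were lower. Gbp3 had 1.36, 0.738 and 1.03 CPM in sgIgfbp5 cells, against 6.98, 6.52 and 7.1 CPM in sgScr cells, a log2 fold change of -2.71 ± 0.23 (edgeR adjusted p = 1.05e-06). Gbp2 had 11.3, 7.57 and 7.61 CPM in sgIgfbp5 cells, against 22.3, 23.8 and 22.1 CPM in sgScr cells (log2 fold change -1.36 ± 0.15, adjusted p = 9.81e-06). Both were wholly below sgScr, as was Gbp7 at -1.66 ± 0.24; these 3 lie on chromosome 3 between 142530342 and 142638008 (GRCm38). Irgm1 changed by -0.59 ± 0.09, and Igtp overlapped between the groups (log2 fold change -0.15 ± 0.18, adjusted p = 0.479). Iigp1, not tested, had 3 counts over the sgIgfbp5 and 45 over the sgScr libraries, a ratio of 15.0 in favour of sgScr (exact 95% interval 4.82 to 75.5).

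Ifi44 was again the exception, higher in sgIgfbp5 cells. It had 3.43, 2.36 and 2.63 CPM in sgIgfbp5 cells, against 1.09, 0.953 and 1.13 CPM in sgScr cells, a log2 fold change of 1.402 ± 0.27 (edgeR adjusted p = 0.000708). Ifi35 had 16.4, 16.8 and 13.3 CPM in sgIgfbp5 cells, against 21.2, 21.8 and 25.3 CPM in sgScr cells (log2 fold change -0.55 ± 0.12, adjusted p = 0.00149). Neither gene overlapped between the groups, and Xaf1 was lower as well (log2 fold change -0.68 ± 0.16). Ifi27 overlapped and did not pass (log2 fold change 0.05 ± 0.08, adjusted p = 0.581).

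**Figure D4:**
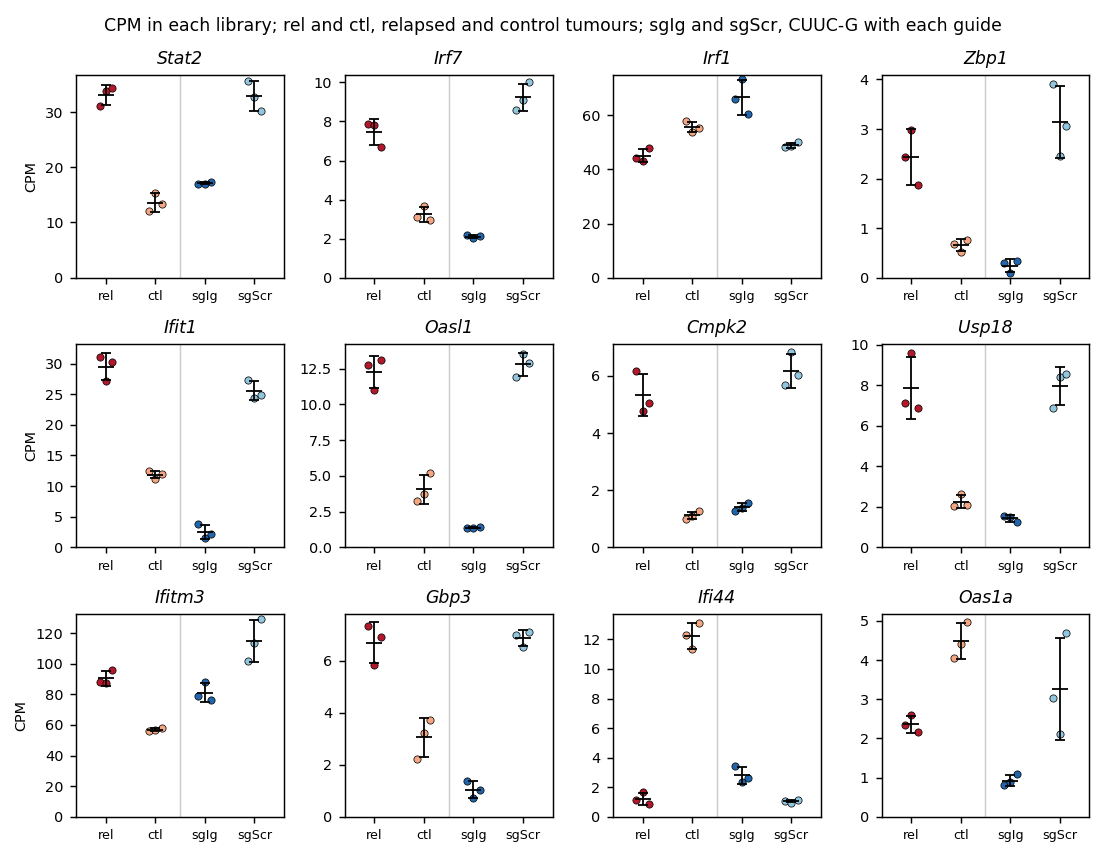
CPM of 12 genes of the list in each library, with the mean and SD of each group of 3 (black); rel, relapsed tumours; ctl, control tumours; sgIg and sgScr, CUUC-G with each guide; CPM was scaled within each comparison. Stat2, Irf7, Zbp1, Ifit1, Oasl1, Cmpk2, Usp18, Ifitm3 and Gbp3 are higher in relapsed and lower in sgIgfbp5 libraries than in the group beside them, Irf1 and Ifi44 show the reverse, and Oas1a is lower in both.

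Trim25 lost its call with DESeq2 (adjusted p = 0.0733), and its edgeR adjusted p was 0.0876 without sgIgfbp5 replicate 2, 0.123 without sgIgfbp5 replicate 3 and 0.0533 without sgScr replicate 2. Without sgScr replicate 2 that of Ifih1 was 0.0771, of Oas3 0.0695 and of Dtx3l 0.107; Dtx3l was also at 0.0659 without sgIgfbp5 replicate 1 and at 0.0740 without sgScr replicate 1. Mx2 was past the threshold without sgIgfbp5 replicate 2 but not without any of the other 5 libraries: 0.122 and 0.150 without sgIgfbp5 replicates 1 and 3, and 0.0760, 0.117 and 0.0670 without sgScr replicates 1, 2 and 3. Mx2 also missed it with DESeq2 (0.0957) and by library size only (0.0604), as did Ifih1 (0.0661) and Dtx3l (0.118) by library size only. Ifih1, Dhx58, Dtx3l and Parp14 lost the call in all 3 limma fits, and Stat2, Oasl2 and Mx2 in the one with no filter. Ifi27 was called higher in all 3 limma fits (log2 fold change 0.23, adjusted p between 0.0232 and 0.0447), while its edgeR value turned to -0.03 without sgIgfbp5 replicate 2 and to -0.01 without sgScr replicate 1.

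Of the 79 other pathway genes tested in CUUC-G, 35 were lower (44.3%), 18 higher (22.8%) and 26 not past the threshold, where 34.3% of all genes were lower and 36.5% higher. Again none of the 21 interferon genes passed the filter; 20 in sgIgfbp5 and 18 in sgScr cells were at 0 counts, Ifnz had 29 and 15 counts, and Ifnb1 had 4 counts in sgScr cells. The summed level of the 21 was at most 1.03 TPM in an sgIgfbp5 and 1.01 TPM in an sgScr library. Of 6 receptor subunits 3 were lower and 2 higher. Ifngr1 had 47.8, 47.2 and 44.7 CPM in sgIgfbp5 cells, against 31.8, 31.9 and 29.6 CPM in sgScr cells (log2 fold change 0.58 ± 0.08, edgeR adjusted p = 4.80e-05). Ifngr2 (-0.55 ± 0.08) and Il10rb (-0.61 ± 0.08) were lower, so both chains of the gamma receptor changed against their direction at relapse.

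Among the 8 tested kinases, STATs and IRFs, 3 were lower and 3 higher; Jak1, which serves both interferon receptors, was lower (log2 fold change -1.09 ± 0.07), and Irf2, a repressor at ISREs, was higher (1.31 ± 0.09). Of 14 sensing genes, 7 were lower and 4 higher, with 0.98 ± 0.08 for Adar, -2.68 ± 0.31 for Tlr7 and -0.87 ± 0.11 for the adaptor Ticam1. Negative regulators were lower for 2 and higher for 2 of 7 tested. Socs3 changed by -1.11 ± 0.10 and Socs1, a direct inhibitor of JAK kinases, by -1.498 ± 0.18, both lower, while Pias4, which binds STATs, was higher (0.55 ± 0.10).

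Of the 44 tested other interferon-induced genes, 20 were lower (45.5%), 7 higher (15.9%) and 17 not past the threshold, with a median log2 fold change of -0.37. Lgals3bp, a secreted glycoprotein gene, had 7.57, 11.02 and 8.69 CPM in sgIgfbp5 cells, against 63.9, 64.4 and 59.4 CPM in sgScr cells (log2 fold change -2.78 ± 0.12, edgeR adjusted p = 5.70e-09). Plscr1 changed by -1.64 ± 0.07 and Rtp4, a chaperone of receptors, by -2.42 ± 0.14, both lower. For these 3 genes no sgIgfbp5 library came near a sgScr one.

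Side by side, 31 of the 39 genes tested in both comparisons (79.5%) were higher at relapse and lower with sgIgfbp5, where 24.7% of all 13904 genes tested in both did so. The 2 comparisons are not separate evidence, since relapsed tumours and sgScr cells, whose profiles are close to each other, stand on opposite sides of them. The other 8 genes were Trim25 (higher in both), Igtp and Ifi27 (higher, then not past the threshold), Mx2 (not past, then lower), Irf1 and Ifi44 (lower, then higher), and Ifih1 and Oas1a (lower in both). By TPM, Ifit1 averaged 17.6 in relapsed and 7.75 in control tumours, and 1.54 in sgIgfbp5 and 15.04 in sgScr cells. Ifi44 averaged 0.656 in relapsed and 8.55 in control tumours, and 2.30 in sgIgfbp5 and 0.731 in sgScr cells. For each of these the relapsed and sgScr levels lay next to each other.

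Genes with and without an ISRE core can be compared as a description. At relapse the 18 genes with the core had a median log2 fold change of 0.74 (16 higher, 2 lower) and the 13 without it 0.99 (11 higher, 2 lower). With sgIgfbp5 the medians were -0.995 with the core (17 lower, 0 higher) and -0.68 without it (10 lower, 3 higher). The 3 genes called higher with sgIgfbp5, Irf1, Trim25 and Ifi44, are all among those without a match in this window, as are Ifitm1, Irf7 and Oasl1, which changed strongly in the other direction.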

How the data were processed

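Per the labels' protocols, libraries came from poly(A) RNA by a stranded method. Salmon, without a version, and GRCm38 (mm10) are named in the submitters' processing notes. The authors deposited estimated counts and TPM per transcript for the tumours, with 147828 transcripts carrying gene, symbol and biotype in their row names, and whole-number estimated counts and TPM per gene for CUUC-G. In 153 CUUC-G values the count was 0 while the deposited TPM was above 0, so these are rounded estimates. Tumour transcripts were summed to 55858 genes, and all estimated counts were rounded. The CUUC-G columns marked mI were taken as sgIgfbp5 because the human libraries mark their targeted samples hI. The number of columns matched to no sample was 0. The human MGHU3 tables were not used here.

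Each comparison was fitted on its own 6 libraries with edgeR 4.0.16 in R 4.3.3 (TMM, filterByExpr, robust quasi-likelihood, two-sided, Benjamini-Hochberg over all genes tested, threshold 0.05). The SE is the size of the log2 fold change over the root of F. The common biological coefficient of variation was 0.0522 in the tumours and 0.0995 in CUUC-G. CPM uses TMM-scaled library sizes and ranks no genes by length; TPM is the authors'. On simulated counts the step recovered 41 of 50 genes changed 2-fold for the tumours (14373 genes) and 40 of 50 for CUUC-G (14553 genes). At 1.5-fold it recovered 31 and 32 of 50. The simulation left 14173 and 14353 genes unchanged, whereas 73.5% and 70.8% of genes were called in the data. These recoveries therefore do not describe a setting with such wide change.

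The 41 genes, their role classes and the pathway and marker lists were chosen with earlier results of these data known. Named in each comparison were up to 2 genes per role class and up to 3 per pathway list by smallest p, genes called against the majority, and genes not tested; 1 gene that this rule also named is not reported here. Alternatives were DESeq2 1.42.0, RLE factors, plain library sizes, a non-robust dispersion, no low-count filter or one of 1 CPM in 3 libraries, limma 3.58.1 on log2(TPM + 1) (mean TPM of at least 1, or no filter) and log2(TPM + 0.1), a minimum fold of 2, leaving out each library, and a block for the replicate number; leaving out genes that share at least 50% of their 31-base stretches with other genes was added after seeing the data. Positions and shared stretches came from GENCODE M21 (GRCm38), in which 51460 identifiers were found; the authors' annotation was another release. Intervals at 95% cover counting error only.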

Additional observations from a re-analysis of the deposited data

How the results depend on the processing

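In relapsed tumours the list had 25 to 34 genes higher and 3 or 4 lower under every scaling, filter, tool and left-out library tried, and in sgIgfbp5 cells 27 to 35 lower and 2 to 4 higher. Without the 4 genes that share at least 50% of their 31-base stretches with others, 31 higher and 3 lower of 36 were counted at relapse, and 30 lower and 3 higher of 35 with sgIgfbp5. The counts of genes at 2-fold or more were 17 higher and 1 lower at relapse, and 19 lower and 1 higher with sgIgfbp5.

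The median log2 fold change of the list at relapse, 0.78 by edgeR, was 0.60 with limma on log2(TPM + 1), 0.65 on log2(TPM + 0.1) and 0.59 with no filter, and 0.75 to 0.86 with 1 library left out. In sgIgfbp5 cells, -0.94 by edgeR, it was -0.83 by library size only, where the median of all genes was 0.17 rather than 0.06, -1.07 with DESeq2, -1.02 with no low-count filter, -0.69, -0.77 and -0.61 in the same 3 limma fits, and -1.01 to -0.93 with 1 library left out. In the same 3 limma fits the median of all genes at relapse was -0.12, -0.13 and -0.003. In CUUC-G it was 0.10, 0.11 and 0.02. The cause of the smaller list medians in the limma fits was not tested. On log2(TPM + 1), 40.7% of called genes were higher at relapse, against 49.8% with edgeR.

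Deviations of same-numbered libraries had correlations of 0.0061 to 0.0148 in the tumours and -0.0817 to 0.093 in CUUC-G. Differently numbered libraries had -0.0152 to 0.0022 in the tumours and -0.144 to 0.129 in CUUC-G. All these values are small, and with 3 libraries per group they cannot decide whether the numbers mark pairs. With the replicate number as a block, the counts were 34 higher and 4 lower at relapse and 34 lower and 3 higher with sgIgfbp5, with medians of 0.80 and -0.94.

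Of the list's tested genes, the direction turned under an alternative only for 2 that were not called with sgIgfbp5, Ifi27 (-0.03 and -0.01 without 1 library) and Igtp (0.03 without sgScr replicate 3). Mx1, Mx2, Iigp1, Oas2 and Ifitm1 rest on few counts, which limits the precision of their values. The same holds for Zbp1 and Ifit3b, with 15 and 17 counts over the sgIgfbp5 libraries and 40 and 35 over the control tumours. Igfbp5, which is outside the list, was also low, at 3.1875 CPM or less in every library.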
